A study of Ovis aries with 9 samples.

Results

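The genes described here build the elastic fibres and the loose matrix between muscle fibres. They are 35 genes for elastin, fibrillins, fibulins and their partners, latent TGF-beta binding proteins, matricellular glycoproteins, proteoglycans, and enzymes that cross-link or process matrix. They were taken by name from the table of 22605 loci, and all 35 were found, each at 1 locus. The locus of SPARCL1 also carries the name of another gene, so its value may hold reads of both. The muscle was the longissimus dorsi, the long muscle of the back, of fetal Chinese merino sheep. It was taken on day 85 (D85), day 105 (D105) or day 135 (D135) of gestation. Each day had 3 libraries, and no treatment or genotype is labelled. Whether replicates are different animals is not labelled, so the p-values cover library-to-library variation only, and that may be technical. Values are FPKM, fragments scaled to transcript length and to the mapped fragments of the library, so levels of different genes can be set side by side. Changes were tested with limma on log2(FPKM + 1) across 13086 loci that reached 1 FPKM in at least 3 libraries, and a change passed at a Benjamini-Hochberg adjusted p under 0.05. All 35 genes were among the loci tested.

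An elastic fibre has a core of cross-linked elastin laid on a scaffold of fibrillin microfibrils. Fibulins and microfibril-associated proteins guide tropoelastin onto that scaffold, and lysyl oxidases join its lysines. Around these fibres lies a matrix of hyaluronan-binding versican, small leucine-rich proteoglycans that coat collagen fibrils, and matricellular proteins that act on cells more than they bear load. In skeletal muscle most of these proteins are made by connective tissue fibroblasts, while vessels and tendon-like tissue make some of the same ones. In bulk tissue, fewer cells of a type and less RNA per cell cannot be told apart.

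Skeletal muscle markers, 10 of 11 matched, summed to 6491 to 20274 FPKM per library, of a total of 395797 to 489270 FPKM. Of the loci without a gene name, the 4 of highest level held 49.4% to 60.0% of that total. Read depth is not given, but steps between low values put it at 0.993 to 1.20 times that of D85 replicate 1. A pair of libraries stood apart in matrix genes. D105 replicate 2 was the highest of the D105 libraries for 27 of the 35 genes (77.1%, against 38.5% of all tested loci), and the highest of all 9 libraries for 15 (42.9%, against 16.1%). D135 replicate 3 was the highest of its day for 33 of 35 genes (94.3%, against 33.9% of all tested loci). Summed over the 35 genes, the level was 2132, 1933 and 1735 FPKM at D85, 1849, 3193 and 1779 FPKM at D105, and 1017, 1274 and 1822 FPKM at D135. The same libraries were high in tendon markers, of which 7 of 8 were matched. Of these, FMOD, KERA, THBS4, COMP and CILP are themselves matrix genes and are also counted among the related genes outside the 35. Their sum was 86.8 to 189 FPKM at D85, 88.8 to 547 FPKM at D105 and 68.1 to 288 FPKM at D135, with the top value of the later days in D105 replicate 2 and D135 replicate 3. KERA, the keratocan of tendon and cornea, was at 7.61, 149 and 9.19 FPKM in the D105 libraries, and TNMD, the tendon protein tenomodulin, at 2.06, 85.2 and 3.05 FPKM. COMP, a tendon and cartilage protein, was listed at 0 in 1 library and did not pass the filter on low values. Cartilage and bone markers, 14 of 14 matched, summed to 10.96 to 42.5 FPKM at D85, 7.71 to 141 FPKM at D105 and 4.09 to 36.2 FPKM at D135. COL2A1, cartilage collagen, was at 1.07, 67.8 and 1.88 FPKM in the D105 libraries, while MATN1, IBSP and HAPLN1 were listed at 0 in 3, 4 and 1 libraries and SOX9 stayed between 0.731 and 2.45 FPKM. Fibroblast markers, 12 of 12 matched, summed to 92.6 to 114 FPKM at D85, 115 to 141 FPKM at D105 and 107 to 135 FPKM at D135. Adipocyte markers, 7 of 7 matched, summed to 2.93 to 17.1 FPKM at D85, 6.52 to 115 FPKM at D105 and 14.6 to 73.6 FPKM at D135, again with the D105 peak in replicate 2. The part of these markers in the results was not tested, so values are given for each library and calls are also given without D105 replicate 2.

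**Figure D1:**
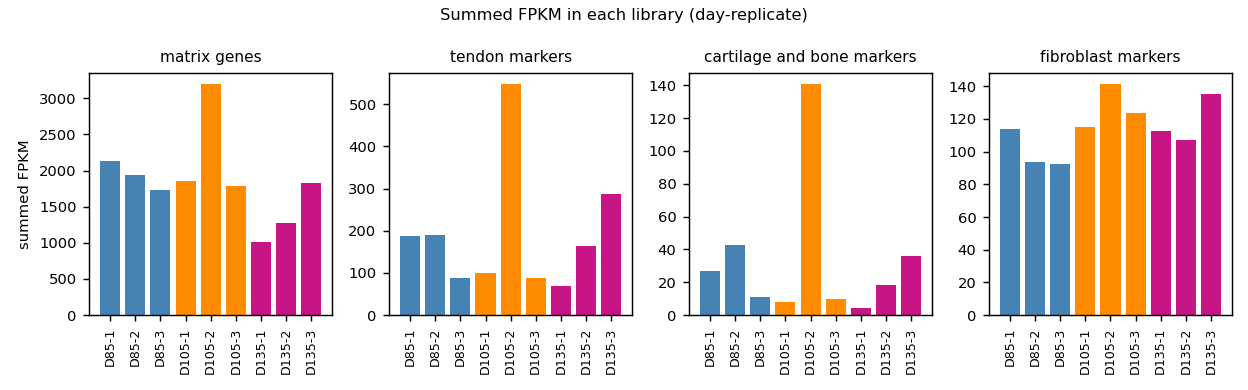
Summed FPKM in each of the 9 libraries (bars, day and replicate) for the 35 matrix genes and for tendon, cartilage and bone, and fibroblast markers, on separate linear axes from 0. D105 replicate 2 has the tallest bar in all 4 panels, and D135 replicate 3 the tallest of its day.

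Over the whole span ELN and 4 other genes rose, and POSTN, VCAN, TNC and 9 other genes fell. Between D135 and D85, 5 of 35 genes were higher (14.3%, against 6.90% of all tested loci) and 12 were lower (34.3%, against 39.7%). The genes that were higher were ELN, EFEMP1, FBLN2, PRELP and SMOC2, and the genes that were lower were FBN2, EFEMP2, MFAP2, EMILIN1, LTBP1, FN1, TNC, POSTN, THBS2, VCAN, ASPN and LOXL2. Between D135 and D105 the same 12 genes were lower (34.3%, against 35.0%) and 0 were higher (0%, against 4.47%). The D135 libraries lay wholly above the D85 libraries for 6 genes (17.1%, against 9.42%) and wholly below for 12 (34.3%, against 48.8%). They lay wholly above the D105 libraries for 0 genes (0%, against 6.43%) and wholly below for 13 (37.1%, against 47.7%). The share of lower calls was thus near the background in both comparisons. The background itself depended on scaling, since the median of all tested loci moved by -0.35 on the log2 scale between D135 and D85 and by -0.33 between D135 and D105. After median-of-ratios scaling, which sets that median near 0, 8 genes were higher (22.9%, against 14.9%) and 9 lower (25.7%, against 12.5%) between D135 and D85. For D135 against D105 it gave 3 higher, EFEMP1, FBLN1 and PRELP (8.57%, against 10.6%), and 8 lower (22.9%, against 6.96%).

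Relative to the median of all loci, 8 of 35 genes lay more than 1 log2 unit below it between D135 and D85 (22.9%, against 4.15%), and 5 lay more than 1 unit above it (14.3%, against 7.47%). Between D135 and D105 these counts were 6 below (17.1%, against 2.63%) and 0 above (0%, against 5.33%), and between D105 and D85 they were 0 below (0%, against 1.76%) and 2 above (5.71%, against 2.11%). The median log2 change of the 35 genes was -0.51 between D135 and D85 and -0.73 between D135 and D105, which is -0.16 and -0.39 relative to all loci. Between D105 and D85 it was 0.16, or 0.18 relative to all loci. Leaving out D105 replicate 2 turned that median to -0.14 (-0.03 for all loci). The median between D135 and D105 was then -0.44 (-0.32 for all loci). The moderated F test over the 3 days called 16 of the 35 genes (45.7%, against 43.2%). Without D105 replicate 2 4 genes were higher (11.4%, against 7.13% of all tested loci) and 12 lower (34.3%, against 39.9%) between D135 and D85. Between D135 and D105, 1 was higher (2.86%, against 4.23%) and 12 were lower (34.3%, against 28.8%).

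**Figure D2:**
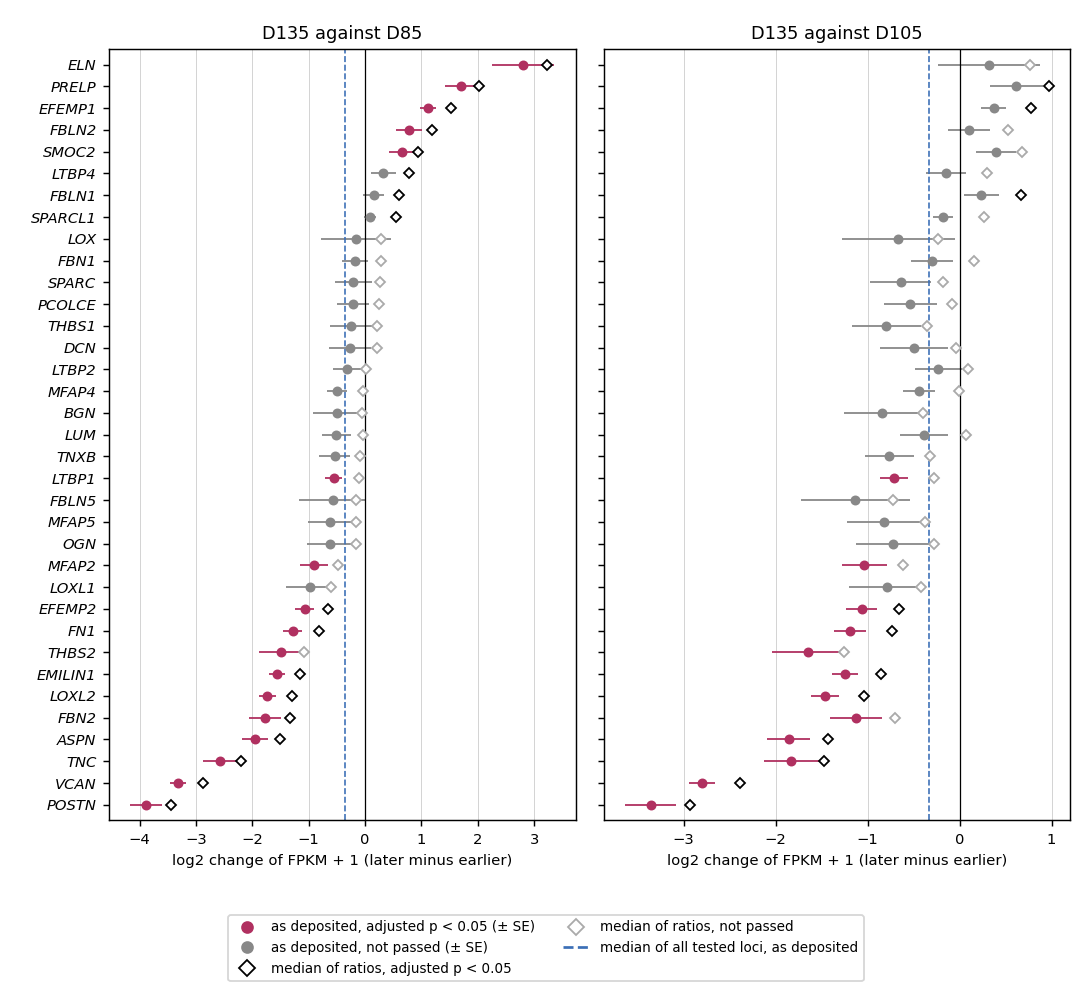
Log2 change of FPKM + 1 (later day minus earlier day) of the 35 genes for D135 against D85 and D135 against D105, as deposited (circles with SE, red where the adjusted p was under 0.05) and after median-of-ratios scaling (diamonds, black where it was under 0.05). POSTN and VCAN lie farthest left and ELN farthest right in the comparison with D85, and the scaling shifts nearly all genes to the right by a like amount.

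Of the elastic fibre core, elastin rose, the fetal fibrillin fell and the main fibrillin did not pass. ELN (MSTRG.9993), which encodes tropoelastin, the soluble elastin subunit, was at 4.54, 4.28 and 2.10 FPKM at D85, 23.3, 40.3 and 15.1 FPKM at D105 and 15.8, 25.3 and 69.8 FPKM at D135. Every D135 and D105 library was above every D85 library, while the D135 and D105 libraries overlapped. Its mean of 36.9 ± 28.8 FPKM at D135 against 3.64 ± 1.34 FPKM at D85 (SD, n = 3) was a 10.1-fold difference (log2 change 2.81 ± 0.55 SE, adjusted p = 0.00471), the 42nd largest rise of the 13086 loci. At D105 the mean was 26.2 ± 12.9 FPKM, against 3.64 ± 1.34 FPKM at D85, and that comparison did not pass (log2 change 2.49 ± 0.55 SE, adjusted p = 0.146). FBN1 (MSTRG.4414) encodes fibrillin-1, the main fibrillin of microfibrils after birth. It was at 137, 93.7 and 98.6 FPKM at D85, 104.6, 156 and 98.6 FPKM at D105 and 81.4, 90.9 and 116 FPKM at D135, with overlap between all days, and passed in none of the 3 comparisons. FBN2 (MSTRG.3537) encodes fibrillin-2, the fibrillin of developing tissue, and was at 30.1, 26.3 and 25.4 FPKM at D85, 13.1, 26.4 and 14.2 FPKM at D105 and 5.65, 6.52 and 10.3 FPKM at D135. All D135 libraries were below all D85 and D105 libraries, and D105 replicate 2 lay within the D85 range. FBN2 fell to 7.48 ± 2.46 FPKM at D135, against 27.3 ± 2.48 FPKM at D85 (log2 change -1.77 ± 0.28 SE, adjusted p = 0.00191). Its fall to D135 from D105 (log2 change -1.12 ± 0.28 SE, adjusted p = 0.0165) did not pass once scaled by median of ratios (adjusted p = 0.129) and without D135 replicate 1 or replicate 2 (adjusted p = 0.0508 and 0.0554).

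Among the 9 genes that assemble elastic fibres or sit on microfibrils, 2 rose between D135 and D85 (22.2%, against 6.90% of all tested loci). Another 3 fell (33.3%, against 39.7%) and 4 did not pass. The fibulins split. EFEMP1 (MSTRG.2207), fibulin-3, was at 3.63, 3.69 and 3.34 FPKM at D85, 5.54, 8.38 and 6.23 FPKM at D105 and 9.28, 8.201 and 9.12 FPKM at D135, and the 3 D135 libraries lay close together above all D85 libraries. It rose 2.50-fold to 8.87 ± 0.583 FPKM at D135, against 3.55 ± 0.187 FPKM at D85 (log2 change 1.11 ± 0.14 SE, adjusted p = 0.000688). For D135 against D105 it missed the threshold as deposited (log2 change 0.37 ± 0.14 SE, adjusted p = 0.0633) and passed without D105 replicate 2 (adjusted p = 0.0120) and after median-of-ratios scaling (adjusted p = 0.00537). EFEMP2 (MSTRG.9290), fibulin-4, which brings lysyl oxidase to tropoelastin, went the other way and was at 12.6, 12.2 and 10.0 FPKM at D85, 11.2, 14.1 and 9.47 FPKM at D105 and 5.39, 4.07 and 5.55 FPKM at D135. The D135 libraries were below all others, and D105 overlapped D85. It fell to 5.004 ± 0.815 FPKM at D135, against 11.6 ± 1.38 FPKM at D85 (log2 change -1.07 ± 0.17 SE, adjusted p = 0.00174). FBLN2 (MSTRG.8681), fibulin-2, a ligand of fibrillin-1, was at 6.95, 4.15 and 4.09 FPKM at D85, 8.13, 10.8 and 6.83 FPKM at D105 and 9.15, 7.53 and 11.1 FPKM at D135. It rose to 9.27 ± 1.80 FPKM at D135, against 5.06 ± 1.63 FPKM at D85 (log2 change 0.78 ± 0.23 SE, adjusted p = 0.0250), a call lost in 4 of 9 fits with a library left out (up to adjusted p = 0.0799 without D135 replicate 3).

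FBLN1, fibulin-1, ranged from 10.8 to 18.4 FPKM and did not pass as deposited between D135 and D85 (log2 change 0.16), though it was higher after median-of-ratios scaling (log2 change 0.60, adjusted p = 0.0308). FBLN5, fibulin-5, which binds tropoelastin to cells and to LOXL1, varied widely within days. Its D85 libraries were at 18.8, 4.98 and 14.7 FPKM and its D135 libraries at 4.04, 4.85 and 18.1 FPKM, so no difference was detectable over that spread. MFAP2 (MSTRG.1838), the microfibril-associated glycoprotein MAGP-1, was at 16.7, 16.9 and 12.1 FPKM at D85, 13.8, 24.5 and 13.5 FPKM at D105 and 8.72, 6.11 and 8.16 FPKM at D135. Its D135 libraries were the 3 lowest. It fell to 7.66 ± 1.38 FPKM at D135, against 15.2 ± 2.73 FPKM at D85 (log2 change -0.90 ± 0.25 SE, adjusted p = 0.0186), but not after median-of-ratios scaling (adjusted p = 0.161 against D85 and 0.1003 against D105). That call was also lost in 3 of 9 fits with a library left out (up to adjusted p = 0.0643 without D135 replicate 2). MFAP5, its relative MAGP-2, was at 62.3, 51.0 and 32.1 FPKM at D85, 39.1, 94.2 and 43.1 FPKM at D105 and 20.6, 32.8 and 40.1 FPKM at D135. D105 replicate 2 stood above every other library, and no comparison passed. MFAP4, a microfibril-associated glycoprotein of the fibrinogen-related family, stayed within 14.5 to 28.8 FPKM. EMILIN1 (MSTRG.2078), a glycoprotein at the interface of elastin and microfibril, was at 13.3, 14.3 and 13.9 FPKM at D85, 12.7, 10.5 and 9.51 FPKM at D105 and 3.996, 3.29 and 4.86 FPKM at D135. The days did not overlap, in descending order, and EMILIN1 fell to 4.05 ± 0.788 FPKM at D135, against 10.9 ± 1.61 FPKM at D105 (log2 change -1.24 ± 0.14 SE, adjusted p = 0.00122) and 13.8 ± 0.486 FPKM at D85 (log2 change -1.57 ± 0.14 SE, adjusted p = 0.000229).

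**Figure D3:**
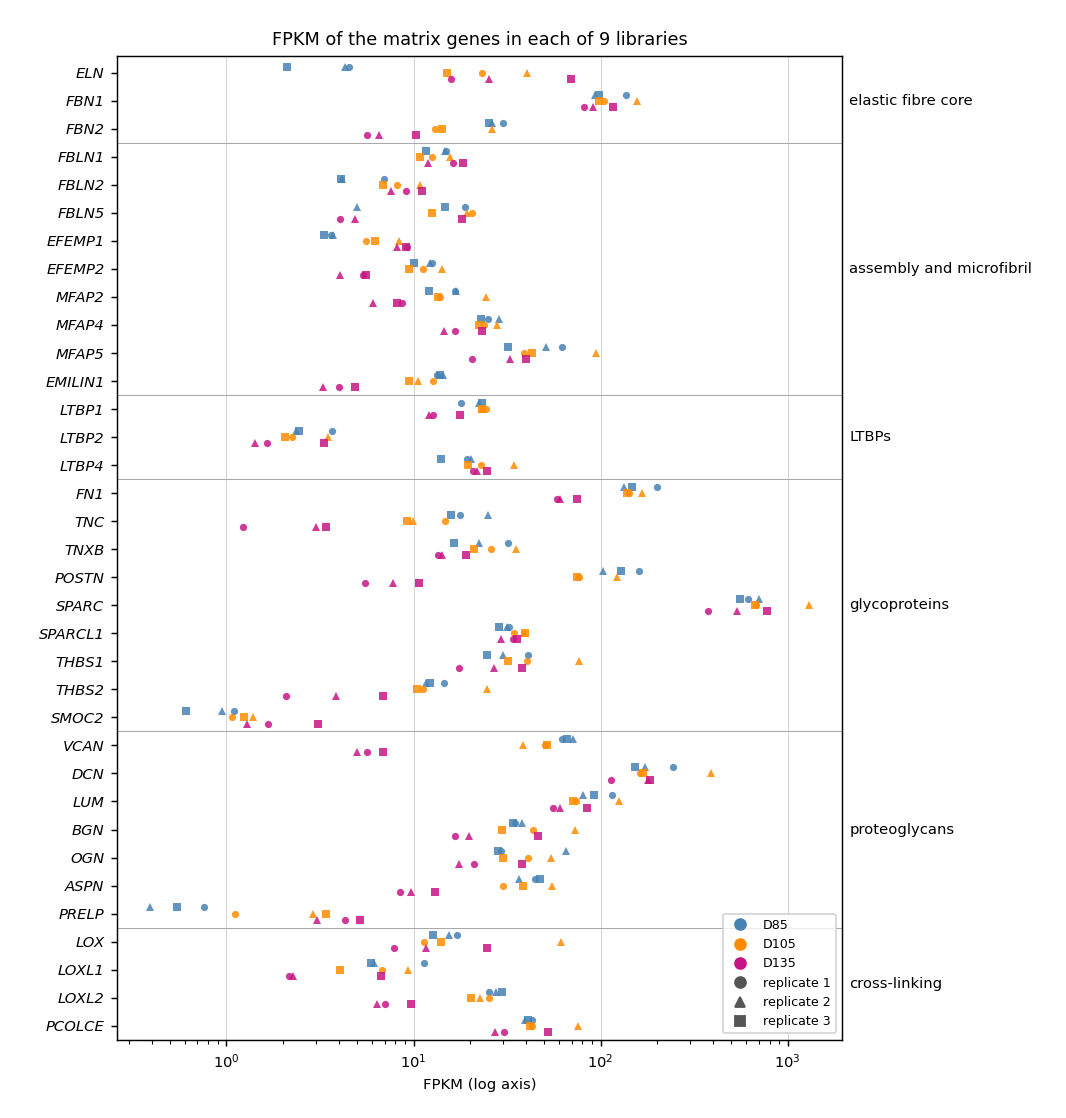
FPKM (log axis) of each of the 35 genes in each of the 9 libraries, coloured by day and with a marker for the replicate number, grouped by role. SPARC is highest throughout, POSTN, VCAN and TNC show the widest gap between the D135 libraries and the others, and the D105 replicate 2 triangle lies to the right of the other D105 markers in 27 of 35 rows.

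The 3 latent TGF-beta binding proteins, which are microfibril proteins related to fibrillins, showed 1 fall and no rise. Between D135 and D85 that is 33.3% lower, against 39.7% of all tested loci. LTBP1 (MSTRG.2281), which holds latent TGF-beta in the matrix, was at 18.0, 22.3 and 23.3 FPKM at D85, 24.3, 23.3 and 23.3 FPKM at D105 and 12.8, 12.1 and 17.8 FPKM at D135. The D135 libraries were the lowest 3. LTBP1 fell to 14.2 ± 3.09 FPKM at D135, against 21.2 ± 2.80 FPKM at D85 (log2 change -0.56 ± 0.15 SE, adjusted p = 0.0195). After median-of-ratios scaling the log2 change was -0.11 and did not pass (adjusted p = 0.671 against D85 and 0.293 against D105). The call as deposited was also lost in 4 of 9 fits with a library left out (up to adjusted p = 0.0669 without D135 replicate 2). LTBP2, which does not bind latent TGF-beta, was low at 1.42 to 3.68 FPKM. LTBP4, which helps fibulin-5 deposit elastin, averaged 22.5 ± 2.09 FPKM at D135 and 17.9 ± 3.39 FPKM at D85 (SD, n = 3). Its change did not pass as deposited (log2 change 0.32, adjusted p = 0.253) and passed after median-of-ratios scaling (log2 change 0.78, adjusted p = 0.0229).

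Of the 9 adhesive and matricellular glycoprotein genes, 4 fell between D135 and D85 (44.4%, against 39.7% of all tested loci). Of the rest, 1 rose (11.1%, against 6.90%) and 4 did not pass. POSTN (MSTRG.5134), periostin, a fibroblast protein of growing connective tissue that binds collagen and tenascin, was at 161, 102 and 128 FPKM at D85, 77.0, 123 and 74.6 FPKM at D105 and 5.53, 7.78 and 10.7 FPKM at D135. The highest D135 library was far below the lowest D105 library, and D105 overlapped D85. POSTN fell to 8.01 ± 2.61 FPKM at D135, against 91.4 ± 27.1 FPKM at D105 (log2 change -3.36 ± 0.28 SE, adjusted p = 0.000625) and 131 ± 29.3 FPKM at D85 (log2 change -3.88 ± 0.28 SE, adjusted p = 0.000141). Only 4 of the 13086 loci tested had a lower log2 change between D135 and D85. TNC (101118337), tenascin-C, an adhesion-modulating protein of developing tendon and muscle-tendon junction, was at 17.8, 25.1 and 15.9 FPKM at D85, 14.8, 9.94 and 9.21 FPKM at D105 and 1.22, 3.02 and 3.39 FPKM at D135. Its 3 days did not overlap, and it fell to 2.54 ± 1.16 FPKM at D135, against 11.3 ± 3.03 FPKM at D105 (log2 change -1.83 ± 0.30 SE, adjusted p = 0.00372) and 19.6 ± 4.86 FPKM at D85 (log2 change -2.58 ± 0.30 SE, adjusted p = 0.000532). In D105 replicate 2, where the summed tendon markers were highest, TNC lay within the range of its day. TNXB, tenascin-X, ranged from 13.6 to 35.4 FPKM and did not pass. In human it has a partial copy that can share reads, and whether this holds for its sheep value was not tested.

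FN1 (MSTRG.1636), fibronectin, the adhesive protein on which fibrillin and other matrix networks are first laid, was at 201, 133 and 148 FPKM at D85, 143, 166 and 139 FPKM at D105 and 58.8, 60.5 and 74.9 FPKM at D135. The D135 libraries were all far below the others, and D105 overlapped D85. It fell to 64.7 ± 8.85 FPKM at D135, against 149 ± 14.6 FPKM at D105 (log2 change -1.20 ± 0.17 SE, adjusted p = 0.00246) and 161 ± 35.8 FPKM at D85 (log2 change -1.29 ± 0.17 SE, adjusted p = 0.000948). THBS2 (MSTRG.4813), thrombospondin-2, an inhibitor of vessel growth, was at 14.5, 11.7 and 12.2 FPKM at D85, 11.3, 24.7 and 10.4 FPKM at D105 and 2.08, 3.87 and 6.86 FPKM at D135. It fell to 4.27 ± 2.42 FPKM at D135, against 12.8 ± 1.496 FPKM at D85 (log2 change -1.49 ± 0.39 SE, adjusted p = 0.0161), but did not pass after median-of-ratios scaling (adjusted p = 0.0820 against D85 and 0.0700 against D105). Its relative THBS1, thrombospondin-1, an activator of latent TGF-beta, ranged from 17.6 to 76.4 FPKM with the top in D105 replicate 2 and did not pass. SPARC (MSTRG.3787), a collagen-binding protein needed for fibril assembly, was the most abundant of the 35 genes. It was at 615, 702 and 559 FPKM at D85, 677, 1304 and 672 FPKM at D105 and 376, 534 and 779 FPKM at D135, with overlap between the days, and D105 replicate 2 was the highest of all 9 libraries. SPARCL1, hevin, had the smallest ratio of highest to lowest library among the 35 genes, with 28.8 to 39.5 FPKM. As deposited it did not differ detectably between D135 and D85 (log2 change 0.09), and after median-of-ratios scaling it was higher (log2 change 0.55, adjusted p = 0.00425). SMOC2 (101116580), a calcium-binding relative of SPARC, was low, at 1.09, 0.941 and 0.605 FPKM at D85, 1.07, 1.38 and 1.24 FPKM at D105 and 1.67, 1.29 and 3.10 FPKM at D135. It rose to 2.02 ± 0.956 FPKM at D135, against 0.880 ± 0.250 FPKM at D85 (log2 change 0.65 ± 0.22 SE, adjusted p = 0.0407), a call lost in 8 of 9 fits with a library left out (highest adjusted p = 0.115, with D85 replicate 3 out), and its log2 change was 0.40 with D135 replicate 3 out.

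Of the 7 proteoglycan genes, VCAN and ASPN fell between D135 and D85 (28.6%, against 39.7% of all tested loci). PRELP rose (14.3%, against 6.90%) and 4 did not pass. VCAN (MSTRG.3831), versican, the large hyaluronan-binding proteoglycan of young, loose matrix, was at 62.4, 70.9 and 66.3 FPKM at D85, 50.2, 38.5 and 51.5 FPKM at D105 and 5.66, 5.01 and 6.83 FPKM at D135. The days did not overlap, and the D135 libraries lay close together. VCAN fell to 5.83 ± 0.922 FPKM at D135, against 46.7 ± 7.19 FPKM at D105 (log2 change -2.80 ± 0.14 SE, adjusted p = 0.000125) and 66.5 ± 4.24 FPKM at D85 (log2 change -3.31 ± 0.14 SE, adjusted p = 4.56e-05), the 13th largest fall of the 13086 loci. In D105 replicate 2 it was the lowest of its day, unlike most of the other genes. Between D105 and D85 the fall did not pass (log2 change -0.51 ± 0.14 SE, adjusted p = 0.219). ASPN (MSTRG.1111), asporin, a small leucine-rich proteoglycan that binds collagen and TGF-beta, was at 44.8, 36.6 and 47.2 FPKM at D85, 29.9, 54.8 and 38.6 FPKM at D105 and 8.43, 9.75 and 13.1 FPKM at D135. It fell to 10.4 ± 2.398 FPKM at D135, against 41.1 ± 12.6 FPKM at D105 (log2 change -1.86 ± 0.24 SE, adjusted p = 0.00162) and 42.9 ± 5.53 FPKM at D85 (log2 change -1.95 ± 0.24 SE, adjusted p = 0.000630).

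PRELP (101111470), prolargin, a small leucine-rich protein that anchors basement membranes to collagen, was the proteoglycan gene that rose. It was at 0.756, 0.391 and 0.544 FPKM at D85, 1.11, 2.92 and 3.42 FPKM at D105 and 4.32, 3.03 and 5.16 FPKM at D135, and every D105 and D135 library was above every D85 library. Its mean was 4.17 ± 1.07 FPKM at D135 against 0.564 ± 0.183 FPKM at D85 (log2 change 1.71 ± 0.29 SE, adjusted p = 0.00235). For D105 against D85 the change did not pass (log2 change 1.09 ± 0.29 SE, adjusted p = 0.195). The remaining 4 did not pass in any comparison. DCN, decorin, the most abundant of the family, was at 245, 173 and 153 FPKM at D85, 162, 388 and 168 FPKM at D105 and 114, 178 and 183 FPKM at D135. LUM, lumican, which like decorin sets collagen fibril width, was at 115, 80.0 and 92.1 FPKM at D85, 73.5, 125 and 70.9 FPKM at D105 and 55.6, 60.9 and 85.1 FPKM at D135. For both, D105 replicate 2 was the highest of all 9 libraries and the days overlapped. BGN, biglycan, and OGN, mimecan, ranged from 16.7 to 72.9 FPKM and from 17.6 to 65.0 FPKM. In the RefSeq gene order of sheep (ARS-UI_Ramb_v3.0), LUM and DCN are next to each other, and ASPN and OGN are separated by 1 gene, OMD. ASPN fell, while OGN did not pass and its D135 and D85 libraries overlapped (25.5 ± 10.9 FPKM at D135 and 40.8 ± 21.0 FPKM at D85, SD, n = 3). THBS2 and SMOC2, which were called in opposite directions between D135 and D85 as deposited, are also next to each other. The SMOC2 call was lost in 8 of 9 fits with a library left out. That of THBS2 was lost after median-of-ratios scaling (limma adjusted p = 0.0820).

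Of the 4 genes for cross-linking and processing, LOXL2 fell and the other 3 did not pass. Between D135 and D85 that is 25.0% lower, against 39.7% of all tested loci. LOXL2 (MSTRG.1175), a lysyl oxidase that cross-links collagen IV among other substrates, was at 25.3, 27.7 and 29.6 FPKM at D85, 25.3, 22.5 and 20.3 FPKM at D105 and 7.01, 6.35 and 9.70 FPKM at D135. It fell to 7.69 ± 1.78 FPKM at D135, against 22.7 ± 2.53 FPKM at D105 (log2 change -1.46 ± 0.15 SE, adjusted p = 0.000990) and 27.5 ± 2.12 FPKM at D85 (log2 change -1.73 ± 0.15 SE, adjusted p = 0.000223). LOX, the enzyme that cross-links elastin and fibrillar collagen, was at 17.1, 15.5 and 12.6 FPKM at D85, 11.4, 61.2 and 14.1 FPKM at D105 and 7.91, 11.7 and 24.6 FPKM at D135. D105 replicate 2 stood far above all other libraries, the largest such excess over its day among the 35 genes, and no comparison passed. LOXL1, the lysyl oxidase that fibulin-5 ties to elastin, ranged from 2.15 to 11.4 FPKM, and PCOLCE, which speeds removal of the procollagen C-propeptide, from 27.2 to 75.5 FPKM. D105 replicate 2 was at least 2 times the higher of the other D105 libraries for 4 genes, DCN, LOX, MFAP5 and THBS2 (11.4% of the 35, against 3.19% of all tested loci).

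**Figure D4:**
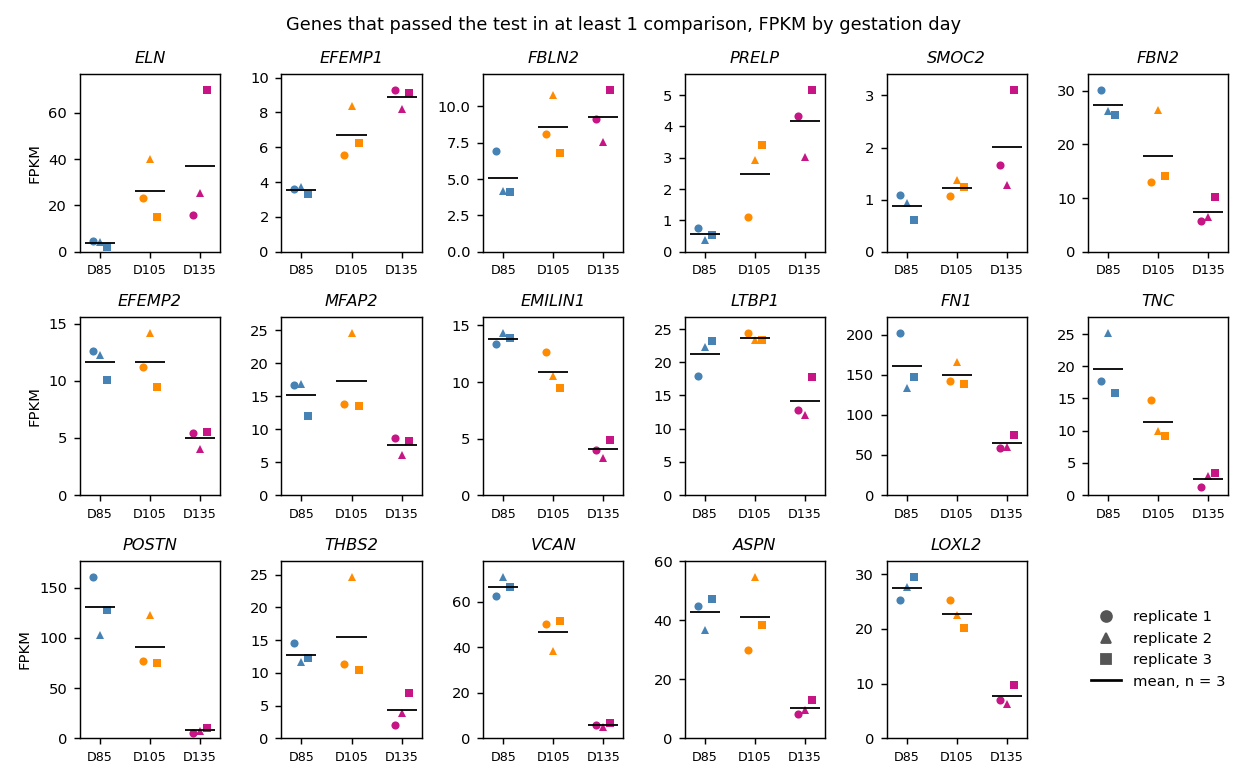
FPKM by gestation day (linear axes from 0) of the 17 genes that passed in at least 1 comparison, with a point per library and a line at the mean of 3. The 5 genes that rose stand first, and for the 12 that fell all 3 D135 libraries are below all D85 libraries.

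Between D105 and D85, 0 of 35 genes passed with limma (0%, against 0.199% of all tested loci in either direction), and 7 of 35 had an unadjusted p under 0.05 (against 12.3% of all tested loci). The count was also 0 after each other scaling and without each library. The days did not overlap for 5 genes that were higher at D105 (14.3%, against 8.00%) and 4 that were lower (11.4%, against 10.4%). Those higher were ELN, EFEMP1, LTBP1, SPARCL1 and PRELP, and those lower were EMILIN1, TNC, VCAN and LOXL2. EFEMP1 came nearest to the threshold, with 6.72 ± 1.48 FPKM at D105 and 3.55 ± 0.187 FPKM at D85 (log2 change 0.74 ± 0.14 SE, adjusted p = 0.117).

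Ratios of genes within a library do not depend on the scaling of that library. They were formed for 6 pairs chosen after the values were seen and are given without a test. FBN2 over FBN1 was 0.219, 0.281 and 0.258 at D85, 0.125, 0.169 and 0.143 at D105, and 0.0695, 0.0717 and 0.0884 at D135. The 3 days did not overlap, and D105 replicate 2 lay near its day. EFEMP1 over EFEMP2 was 0.288, 0.302 and 0.333 at D85, 0.494, 0.593 and 0.658 at D105, and 1.72, 2.02 and 1.64 at D135, so fibulin-3 went past fibulin-4 between D105 and D135. ELN over FBN1 averaged 0.0334 ± 0.0122 at D85, 0.211 ± 0.0534 at D105 and 0.357 ± 0.214 at D135 (SD, n = 3), with D105 and D135 overlapping. VCAN over DCN was 0.255, 0.409 and 0.433 at D85, 0.311, 0.0993 and 0.307 at D105, and 0.0496, 0.0281 and 0.0374 at D135. Its D135 libraries were all below the others, and D105 replicate 2 was the nearest to them. PRELP over ASPN averaged 0.0130 ± 0.00337 at D85, 0.0596 ± 0.0263 at D105 and 0.406 ± 0.101 at D135. LOX over LOXL2 was 0.677, 0.558 and 0.428 at D85, 0.449, 2.71 and 0.696 at D105, and 1.13, 1.85 and 2.54 at D135.

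**Figure D5:**
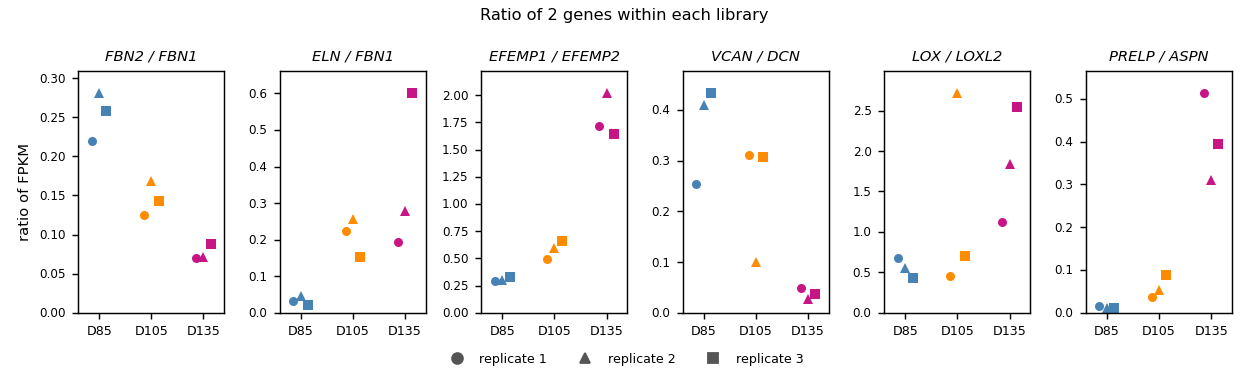
Ratio of the FPKM of a pair of genes in each library by gestation day, on linear axes from 0, with a marker per replicate number. FBN2 over FBN1 falls and EFEMP1 over EFEMP2 and PRELP over ASPN rise over the 3 days without overlap, while LOX over LOXL2 has D105 replicate 2 far above its day.

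As shares of the summed FPKM of the 35 genes, SPARC made 32.5% ± 3.74 at D85, 38.4% ± 2.18 at D105 and 40.6% ± 3.10 at D135, and DCN 9.76% ± 1.505, 10.1% ± 1.80 and 11.8% ± 2.03 (SD, n = 3). POSTN held 6.75% ± 1.25 at D85, 4.06% ± 0.196 at D105 and 0.581% ± 0.0338 at D135. ELN held 0.185% ± 0.0557, 1.12% ± 0.240 and 2.46% ± 1.21 on the same days. By role, proteoglycans together held 24.4% ± 0.479, 22.3% ± 0.708 and 22.0% ± 1.22, and elastin with the fibrillins 7.25% ± 0.819, 7.27% ± 0.327 and 10.2% ± 0.575.

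Related genes outside the 35 were counted from lists matched by name. Their counts for D135 against D85 stand against 6.90% higher and 39.7% lower among all tested loci as deposited, and 14.9% higher and 12.5% lower after median-of-ratios scaling. Of 16 other elastic fibre and microfibril genes tested, 7 fell between D135 and D85, 0 rose and 9 did not pass, with a median log2 change of -0.39 against -0.35 for all loci. The share lower, 43.8%, was near that of all loci, and after median-of-ratios scaling it was 25.0%, with 6.25% higher. FBN3, a fibrillin of early development in human, fell to 1.74 ± 0.408 FPKM at D135, against 9.98 ± 2.09 FPKM at D85 (log2 change -1.998 ± 0.19 SE, adjusted p = 0.000251), in the same direction as FBN2. EMILIN2, a relative of EMILIN1, fell to 8.91 ± 0.777 FPKM at D135, against 38.8 ± 5.87 FPKM at D85 (log2 change -1.996 ± 0.16 SE, adjusted p = 0.000163). THSD4, which promotes fibrillin-1 assembly, and FKBP10, a chaperone of collagen and elastin, fell too (log2 changes -1.32 and -1.24), FKBP10 not after median-of-ratios scaling (adjusted p = 0.0988). Of 20 other proteoglycan genes tested, 2 rose, 10 fell and 8 did not pass, with a median of -0.39, while median-of-ratios scaling gave 2 higher and 4 lower. PODN, podocan, a small leucine-rich proteoglycan, was the largest rise, with 6.49 ± 1.39 FPKM at D135 and 1.60 ± 0.0366 FPKM at D85 (log2 change 1.51 ± 0.16 SE, adjusted p = 0.000410). GPC3, a glypican that restrains growth, SDC2, a syndecan, and SPOCK1, testican-1, fell (log2 changes -1.99, -1.55 and -1.34). The locus of SDC2 also carries the name of another gene.

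Of 21 other matricellular and adhesive genes, 2 rose, 6 fell and 13 did not pass between D135 and D85, with a median of -0.40, while median-of-ratios scaling gave 2 higher and 3 lower. MGP, the matrix Gla protein that inhibits calcification of elastic tissue, was at 8.47, 11.0 and 4.74 FPKM at D85, 20.03, 91.1 and 26.9 FPKM at D105 and 72.3, 36.7 and 112 FPKM at D135. Like ELN, it was lower in every D85 library than in any later library (log2 change 2.97 ± 0.61 SE, adjusted p = 0.00566). PCOLCE2, a relative of PCOLCE, rose to 12.1 ± 2.52 FPKM at D135, against 2.84 ± 1.30 FPKM at D85 (log2 change 1.81 ± 0.36 SE, adjusted p = 0.00489). FNDC1, a fibronectin type III protein, and THBS3, thrombospondin-3, fell (log2 changes -1.71 and -1.54), FNDC1 not after median-of-ratios scaling (adjusted p = 0.0541).

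Of 17 genes that make glycosaminoglycan chains, 13 fell between D135 and D85 (76.5%, against 39.7% of all tested loci), 0 rose and 4 did not pass, with a median log2 change of -0.86 against -0.35 for all loci. After median-of-ratios scaling 9 of the 17 fell (52.9%, against 12.5%) and 0 rose (0%, against 14.9%). HAS2, the main hyaluronan synthase of fetal connective tissue, was at 7.24, 6.50 and 7.24 FPKM at D85, 3.07, 5.69 and 4.19 FPKM at D105 and 0.942, 1.13 and 0.764 FPKM at D135. Its days did not overlap, as with VCAN, whose product binds hyaluronan (log2 change -2.04 ± 0.18 SE, adjusted p = 0.000207 for HAS2). CHST14 and DSEL, enzymes of dermatan sulfate, and XYLT1, which starts the chains, fell by log2 changes of -1.90, -1.16 and -0.99. Of 10 proteases, 4 fell, 0 rose and 6 did not pass, with a median of -0.30, and 2 fell after median-of-ratios scaling. ADAMTS15 and ADAMTS4, which cleave versican, fell to 1.13 ± 0.0957 and 0.938 ± 0.296 FPKM at D135, against 3.77 ± 0.451 and 3.21 ± 0.316 FPKM at D85 (adjusted p = 0.00117 and 0.000688). BMP1, the procollagen C-proteinase, and HTRA1, a serine protease, fell as deposited but not after median-of-ratios scaling (adjusted p = 0.0817 and 0.726). Of 18 matrix receptors and TGF-beta genes, 1 rose, 7 fell and 10 did not pass, with a median of -0.39, while median-of-ratios scaling gave 2 higher and 2 lower. CD44, the hyaluronan receptor, fell to 8.73 ± 1.71 FPKM at D135, against 21.3 ± 2.36 FPKM at D85 (log2 change -1.21 ± 0.14 SE, adjusted p = 0.000542), and TGFB2, a TGF-beta ligand, by a log2 change of -1.07. DDR1, a collagen receptor, fell by 0.69 on the log2 scale, but not after median-of-ratios scaling (adjusted p = 0.195). ITGB6, an integrin that activates latent TGF-beta, was the receptor that rose, with 26.7 ± 3.93 FPKM at D135 and 16.3 ± 2.13 FPKM at D85 (log2 change 0.67 ± 0.13 SE, adjusted p = 0.00467). ITGB6 was found at 3 loci, and these values are of the locus of highest mean only.

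Marker lists of other cells are given for the same comparison of D135 with D85. Among all tested loci 6.90% rose and 39.7% fell as deposited. After median-of-ratios scaling 14.9% rose and 12.5% fell. Of 11 fibroblast markers tested, 2 rose (18.2%), 3 fell (27.3%) and 6 did not pass. Their median log2 change was -0.06 against -0.35 for all loci, while median-of-ratios scaling gave 4 higher and 2 lower. PI16, a marker of universal fibroblasts, rose to 25.6 ± 9.93 FPKM at D135, against 5.49 ± 2.01 FPKM at D85 (log2 change 2.01 ± 0.37 SE, adjusted p = 0.00348), and was higher in every D105 and D135 library than in any D85 library. DPP4, another marker of those cells, fell by 1.06 on the log2 scale (adjusted p = 0.0218), but not after median-of-ratios scaling (adjusted p = 0.0697). OSR2 and TCF7L2, transcription factors of connective tissue, fell too (log2 changes -0.77 and -0.76). The locus of OSR2 also carries the name VPS13B, so its value may hold reads of both genes. TCF7L2 was found at 3 loci, and its value is that of the locus of highest mean. Of 6 tendon markers tested, 0 passed with limma as deposited and 0 had an unadjusted p under 0.05. THBS4 and FMOD, the tendon markers of highest mean, averaged 82.0 ± 38.2 and 35.0 ± 33.5 FPKM at D135 and 75.6 ± 25.3 and 13.2 ± 7.08 FPKM at D85 (SD, n = 3). Of 5 cartilage and bone markers tested, 1 fell, SOX9 (log2 change -0.73). Of 11 endothelial markers 4 rose (36.4%), ESAM, EGFL7, VWF and TEK (log2 changes 0.69, 0.68, 0.65 and 0.33), and 0 fell. Of 9 markers of smooth muscle and pericytes, 1 rose (11.1%), 4 fell (44.4%, near that of all loci) and the other 4 missed the threshold. Their median log2 change was 0.11, while median-of-ratios scaling gave 3 higher and 2 lower. RGS5, of pericytes, rose (log2 change 2.94), while NOTCH3, ACTA2 and CNN1 fell (log2 changes -1.08, -1.69 and -2.20), CNN1 not after median-of-ratios scaling (adjusted p = 0.0586). ACTA2 and CNN1 are contractile genes, and of the others in the list MYH11 averaged 7.88 ± 1.32 FPKM at D135 and 4.73 ± 0.639 FPKM at D85, without overlap (adjusted p = 0.0614, and 0.0115 after median-of-ratios scaling), and TAGLN 39.1 ± 6.29 FPKM at D135 and 35.9 ± 2.33 FPKM at D85 (adjusted p = 0.705). These 2 were named after their values were seen. Of 10 skeletal muscle markers 6 rose (60.0%) and 1 fell (10.0%), with a median log2 change of 0.74. Median-of-ratios scaling gave 8 higher and 0 lower. The largest changes were of CKM, CASQ1, ACTA1 and TNNI2 (log2 changes 2.50, 2.42, 2.26 and 1.22). In the smaller lists, LPL was the 1 of 5 adipocyte markers that rose and CD68 the 1 of 2 leukocyte markers that fell, and no other member of those lists passed as deposited. After median-of-ratios scaling 2 adipocyte markers were higher, and 0 leukocyte markers were lower.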

How the data were processed

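RNA from the longissimus dorsi was sequenced at gestation days 85, 105 and 135, with 3 libraries per day grouped by title. Per the labels' protocols, RNA was extracted with Trizol and libraries were made with Illumina kits for mRNA. The submitters' processing notes name cutadapt, Bowtie2 and TopHat2. For the assembler, the counting and the genome build, nothing is given in the sources used. The deposited FPKM values, 1 per locus and library, were used unrounded. The deposited table holds no read counts, so no counting interval is given. Low values gave the relative depth of the libraries from 84 to 124 loci each.

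Loci with at least 1 FPKM in at least 3 libraries were tested (13086 of 22605) with limma 3.58.1 in R 4.3.3, on log2(FPKM + 1) with a pseudocount of 1, all 9 libraries in 1 fit, a variance trend and no block. Tests were two-sided, p-values were adjusted over all tested loci by Benjamini-Hochberg, and a change passed under 0.05. A fold change is a ratio of mean FPKM, and a log2 change is on the log2(FPKM + 1) scale, which understates the change of low genes. With 3 libraries against 3, an exact permutation test cannot go below 0.1, so none is given. Non-overlap means that all libraries of a day lay above or below all of the other. The 35 genes and the 15 companion lists (211 distinct genes, matched by symbol, with 6 found under an older symbol and 2 through the RefSeq gene table) were chosen with earlier results of these data known. Genes named with full values were those that passed, the 5 of highest mean and those where D105 replicate 2 was at least 2 times the higher of the other D105 libraries. From each companion list, up to 4 with the largest called change were named, or the 2 of highest mean where none passed. A list gene found at several loci was taken at the locus of highest mean FPKM. Tables were handled with pandas 2.3.3 and numpy 2.4.6, and figures drawn with matplotlib 3.10.9. Alternatives were pseudocounts of 0.1 and 5, no filter, a filter at 5 FPKM, median-of-ratios and quantile scaling, library weights, no variance trend, 2-day fits, a replicate block, summed loci and leaving out each library. Leaving out D105 replicate 2 together with median-of-ratios scaling was added after seeing the data. The list genes SPOCK3, SPP1, CSGALNACT1, CD36, SCX, CLDN5, LMOD1, CD163 and TNNT3 were not analysed here, and 1 of the companion lists is not reported here.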

Additional observations from a re-analysis of the deposited data

How the results depend on the processing

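The number of the 35 genes that passed stayed within 1.5 times of the reported count under every alternative run. With each library left out in turn it was 0 between D105 and D85, 11 to 17 between D135 and D105, 13 to 17 between D135 and D85, and 12 to 16 over all days. Of the 29 called changes of single genes, 24 passed in all 9 of these fits. None of the 39 reported changes, which are the called ones and some chosen others, reversed under any alternative. Outside these 39, some changes between D135 and D85 took the other sign after median-of-ratios scaling without passing, such as those of FBN1, SPARC and DCN. The fit with summed loci could not differ for these genes, as each has 1 locus. Of 815 recomputed values of 39 reported changes, 46 lost and 14 gained a call. Counts over all loci moved more. Between D105 and D85 the 26 loci called became 45 with no filter, 12 with a filter at 5 FPKM, 17 with only the 2 days fitted and 14 to 28 with a library left out (16 without D85 replicate 2 or 3, 14 without D135 replicate 2). Between D135 and D105 the 5164 became 3271 with the filter at 5 FPKM, 2300 with median of ratios (1389 higher, 911 lower), 2058 with quantile scaling (986 higher, 1072 lower), 1823 without D105 replicate 2 and with median of ratios, and 3456 to 5092 with a library left out. Between D135 and D85 the 6097 became 3715, 3594 (1952 higher, 1642 lower), 3542 (1599 higher, 1943 lower) and 3649 under the same settings, and 4735 to 6152 with a library left out. Fewer loci were tested at 5 FPKM, and the cause of the other moves was not tested.

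Replicate numbers did not pair the libraries: correlations of same-numbered libraries of different days were -0.0659 to 0.0605 over 9 pairs. In 1 of these 9 pairs the library of the earlier day correlated best with its own number on the later day. With the replicate block, 0 of the 35 genes passed between D105 and D85, 12 between D135 and D105, 16 between D135 and D85 and 15 over all days. Over all loci these counts were 8, 4320, 5495 and 4600. Depth is known only relative to 1 library, and the precision of genes near 1 FPKM, such as SMOC2 and PRELP, is limited by it.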

Other observations

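Of 11 endothelial markers tested, 10 were higher in every D105 library than in any D85 library (90.9%, against 8.00% of all tested loci), and their median log2 change was 0.50 against -0.02 for all loci. With limma 1 of them passed (EGFL7, adjusted p = 0.0288), and 9 had an unadjusted p under 0.05 (against 12.3% of all tested loci). Without D105 replicate 2 none of the 11 passed (adjusted p = 0.0505 for EGFL7). Their summed level was 173 to 205 FPKM at D85, 267 to 279 FPKM at D105 and 193 to 243 FPKM at D135. D105 replicate 2 did not stand apart in that sum, unlike in the sums of the 35 matrix genes and of tendon markers. Between D135 and D85, 4 of the 11 passed as higher as deposited (36.4%, against 6.90% of all tested loci) and 9 after median-of-ratios scaling (81.8%, against 14.9%). Among smooth muscle and pericyte markers, RGS5, a pericyte gene, was the 1 of 9 that passed between D105 and D85. That is 11.1%, against 0.199% of all tested loci, and RGS5 also passed without D105 replicate 2. The days did not overlap for 2 of the 9 that were higher (22.2%, against 8.00%) and 2 that were lower (22.2%, against 10.4%).

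The summed level of the glycosaminoglycan synthesis genes was 115 to 130 FPKM at D85, 94.9 to 118 FPKM at D105 and 55.7 to 60.4 FPKM at D135, with the D135 libraries close together. In the summed level of the 35 matrix genes, by contrast, the highest D135 library was well above the lowest, at 1822 FPKM and 1017 FPKM.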
